A study of Mus musculus with 2 samples.

Results

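Apolipoproteins are the protein components of lipoprotein particles, and 10 of their genes (Apoa1, Apoa2, Apoa5, Apob, Apoc1, Apoc3, Apoc4, Apoe, Apoh and Apom) were read from RNA-seq of hepatic stromal cells. Each of the 10 symbols matched a single Ensembl gene entry in GENCODE M21, out of 38320 entries in each library. Adult male C57/Bl6 mice received carbon tetrachloride (CCl4, a hepatotoxin) for 5 weeks. Control cells came from Foxf1 fl/fl mice, whose floxed Foxf1 alleles stay intact, and mutant cells from αSMACreER;Foxf1 fl/fl mice, in which tamoxifen activates a Cre recombinase driven by the α-smooth muscle actin promoter. After deletion these cells are called αSMACreER;Foxf1-/-, and deletion is restricted to cells in which that promoter has been active. The labels do not say whether the control mice received tamoxifen, while the study's text describes control livers after both CCl4 and tamoxifen. How many animals were pooled is not given in the sources used here. Foxf1 itself was not analysed here. Liver cells that adhered to culture dishes within 2 h were collected, and samples of each genotype were pooled into 1 library, so that 2 libraries were compared. Differences between the genotypes could therefore not be set against a spread between animals, and none was tested.

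The liver is the main source of circulating apolipoproteins. Apob is the scaffold of very low density and low density lipoproteins, Apoa1 and Apoa2 are the main proteins of high density lipoproteins, and the small Apoc proteins exchange between particles and adjust their lipolysis and uptake. Hepatocytes make all of them. Apoe is the ligand by which receptors of the LDL receptor family take up particle remnants. It is also made in quantity by macrophages, where it accepts cholesterol from loaded cells. Which cells made the other members in these libraries was not tested. Apoe, Apoc1, Apoc4 and Apoc2 lie side by side in the genome, as do Apoa1, Apoc3, Apoa4 and Apoa5.

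The bases before the start sites are given for 4 members. Apoe is the member that stood apart in the values below, while Apoa2, Apob and Apoh were among those lower in αSMACreER;Foxf1-/- cells. Apoa1 and Apom were lower too and are not printed. Each sequence holds the 250 bases before the RefSeq start site (GRCm38.p6), written 5′ to 3′ on the strand of the gene, at chr7:19699189-19699438 (minus strand) for Apoe, chr1:171224804-171225053 (plus strand) for Apoa2, chr12:7977427-7977676 (plus strand) for Apob and chr11:108395047-108395296 (plus strand) for Apoh. The Apoh start lies 51943 bases inside the entry from which its FPKM was read, so that this stretch does not precede that entry. Capitals mark the letters TATAAA (as in the box bound by the TATA-binding protein) and AGGTCA (a core of nuclear receptor sites). They also mark GTTAAT (letters of the HNF1 site) and TGTTTAC (a forkhead core). All were searched on both strands, with no overlap between the matches marked.
Apoe: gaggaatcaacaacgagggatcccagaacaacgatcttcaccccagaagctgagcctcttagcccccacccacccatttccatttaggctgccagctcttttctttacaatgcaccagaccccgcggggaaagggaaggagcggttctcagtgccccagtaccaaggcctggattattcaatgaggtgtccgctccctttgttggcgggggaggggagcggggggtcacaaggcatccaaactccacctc
Apoa2: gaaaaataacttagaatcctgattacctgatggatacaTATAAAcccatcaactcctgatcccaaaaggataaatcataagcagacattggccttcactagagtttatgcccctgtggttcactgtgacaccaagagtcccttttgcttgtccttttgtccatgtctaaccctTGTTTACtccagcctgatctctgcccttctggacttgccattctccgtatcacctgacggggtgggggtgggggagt
Apob: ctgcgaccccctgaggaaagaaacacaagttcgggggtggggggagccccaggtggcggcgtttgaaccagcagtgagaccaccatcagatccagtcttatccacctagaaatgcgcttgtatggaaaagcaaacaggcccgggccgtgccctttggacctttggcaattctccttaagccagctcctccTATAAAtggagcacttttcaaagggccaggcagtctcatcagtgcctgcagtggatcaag
Apoh: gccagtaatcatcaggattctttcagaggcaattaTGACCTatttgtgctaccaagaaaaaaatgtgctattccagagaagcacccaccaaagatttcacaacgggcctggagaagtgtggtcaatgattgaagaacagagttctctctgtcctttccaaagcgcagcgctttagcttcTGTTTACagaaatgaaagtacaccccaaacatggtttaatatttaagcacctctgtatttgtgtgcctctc
The table of promoters held 8 of the 10 members. TATAAA was found in 3 of them (Apoa2, Apoa5 and Apob), against 12.4% of all 32851 promoters of the same length. The match begins 212 bases before the start site in Apoa2, 56 in Apoa5 and 60 in Apob. AGGTCA was found in Apoc4 and Apoh, against 14.0% of all promoters, and GTTAAT was found in 0 of the 8, against 6.43%. TGTTTAC was found in Apoa2 and Apoh, against 3.17%. The stretches of Apoe, Apoa1 and Apom held none of these letters. The Apom start lies 249 bases inside the entry from which its FPKM was read, so that its stretch does not precede that entry. A match of letters describes the sequence, and binding was not measured in these libraries.

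Of the 10 apolipoprotein genes, 9 were at least 1.5-fold lower in αSMACreER;Foxf1-/- cells than in Foxf1 fl/fl cells, and Apoe was not. None was 1.5-fold higher. By comparison, 13.2% of the 12692 genes with a mean FPKM of 1 or more were lower by this measure and 12.8% higher. The 9 members were also at least 2-fold lower, against 6.21% of these genes (4.35% were 2-fold higher). Apoc1 was no longer 2-fold lower with an equal FPKM sum (log2 −0.89) or with the trend with transcript length removed (−0.71). Among the 8482 genes with a mean FPKM of 5 or more, which include all 9, 11.1% were 1.5-fold lower and 8.08% higher. These shares depend on the setting. With an equal FPKM sum 8.9% of the 12692 genes were lower and 21.2% higher, and with the length trend removed 11.1% and 10.0%. Values are in FPKM, a count of fragments scaled for transcript length and library size, as estimated by Cufflinks. Fold changes are log2(FPKM + 0.1) of αSMACreER;Foxf1-/- minus Foxf1 fl/fl after the αSMACreER;Foxf1-/- values were divided by 1.02, the median ratio between the libraries. The median log2 fold change of the 9 lower members was −1.66, and that of all genes was 0.0050. In bulk RNA, fewer cells of a type and less RNA per cell cannot be told apart.

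Among the proteins of high density lipoproteins, Apoa1 (ENSMUSG00000032083, chr9:46228580-46230466 of mm10, plus strand), which activates the cholesterol-esterifying enzyme LCAT, had an FPKM of 261 in Foxf1 fl/fl cells and 84.2 in αSMACreER;Foxf1-/- cells. This was 3.16-fold lower, a log2 fold change of −1.66 with an approximate counting interval of −1.79 to −1.52. Apoa2 (ENSMUSG00000005681, chr1:171225054-171226379, plus strand), the second protein of these particles, had 782 and 220.3. It was 3.62-fold lower, a log2 fold change of −1.85 (−1.98 to −1.73). Apom (ENSMUSG00000024391, chr17:35128997-35132050, minus strand), which carries sphingosine-1-phosphate, had 27.0 and 7.39. With 3.72-fold (log2 −1.88, −2.27 to −1.49) it had the largest difference of the 10 genes, although Apoa2 and Apoc4 exceeded it with a pseudocount of 1 and Apob, Apoc4 and Apoa5 with the length trend removed. These 3 genes encode proteins of the same kind of particle, and the counting interval of Apom overlapped those of Apoa1 and Apoa2.

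Apob (ENSMUSG00000020609, chr12:7977648-8016835, plus strand) had an FPKM of 20.3 in Foxf1 fl/fl cells and 7.56 in αSMACreER;Foxf1-/- cells. It was 2.74-fold lower, a log2 fold change of −1.44 (−1.57 to −1.31). Its longest coding transcript has 13934 bases in 29 exons, against 518 to 2515 bases for the longest coding transcripts of the other members. Apoa5 (ENSMUSG00000032079, chr9:46268633-46271919, plus strand), a minor plasma protein that promotes the lipolysis of triglycerides, had the lowest levels of the 10 genes, at 14.9 and 4.83. Its log2 fold change was −1.63, and its interval (−2.33 to −0.94) was the widest. That interval rests on about 61 and 23 reads, estimated with a median coding transcript of 611 bases. Its longest has 2515 bases, a length that would give more reads and a narrower interval.

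Among the small exchangeable proteins, Apoc3 (ENSMUSG00000032081, chr9:46232933-46235636, minus strand), an inhibitor of lipoprotein lipase, had an FPKM of 220.3 in Foxf1 fl/fl cells and 70.7 in αSMACreER;Foxf1-/- cells. This gave a log2 fold change of −1.66 (−1.88 to −1.45). Apoc4 (ENSMUSG00000074336, chr7:19678094-19681416, minus strand) had 138 and 38.3, which gave −1.87 (−2.14 to −1.60). The Apoc4 entry lies inside that of its neighbour Apoc2 (chr7:19671579-19681423 on the same strand) and overlaps the annotated gene Gm44805, so that the division of reads among them is uncertain. Apoc1 (ENSMUSG00000040564, chr7:19689484-19692658, minus strand) had 1784 and 861, and was 2.11-fold lower (log2 −1.08, −1.15 to −1.003). Its difference was the smallest of the 9, and its interval did not overlap that of any other member except Apoa5. The width of the Apoa5 interval depends on the transcript length taken for its reads. The remaining 8 genes lay between 2.74-fold and 3.72-fold lower, within 0.44 of each other on the log2 scale.

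Apoh (ENSMUSG00000000049, chr11:108343354-108414396, plus strand) encodes β2-glycoprotein I, a phospholipid-binding plasma protein that circulates largely outside lipoproteins. It had an FPKM of 96.2 in Foxf1 fl/fl cells and 29.3 in αSMACreER;Foxf1-/- cells, with a log2 value of −1.73 (−2.04 to −1.43). Its fold change lay inside the range of the genes for proteins of lipoprotein particles. Its entry overlaps Prkca on the opposite strand, and that of Apoa5 overlaps the antisense gene Gm47544.

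Apoe (ENSMUSG00000002985, chr7:19696109-19699166, minus strand) had an FPKM of 10903 in Foxf1 fl/fl cells and 10296 in αSMACreER;Foxf1-/- cells. It was the fourth most abundant gene in both libraries. Its log2 fold change was −0.11, a difference of 1.08-fold, and it turned to 0.083 when the libraries were scaled to an equal FPKM sum and to 0.19 when the trend with transcript length was removed. The Apoe estimate carried the Cufflinks status FAIL in both libraries, which marks a numerical failure of the division of reads among isoforms, and Apoe has 11 annotated transcripts. At most 3 of the 38320 entries of a library had this status. No counting interval is given for Apoe, and each comparison with it below holds only as far as that estimate does.

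**Figure D1:**
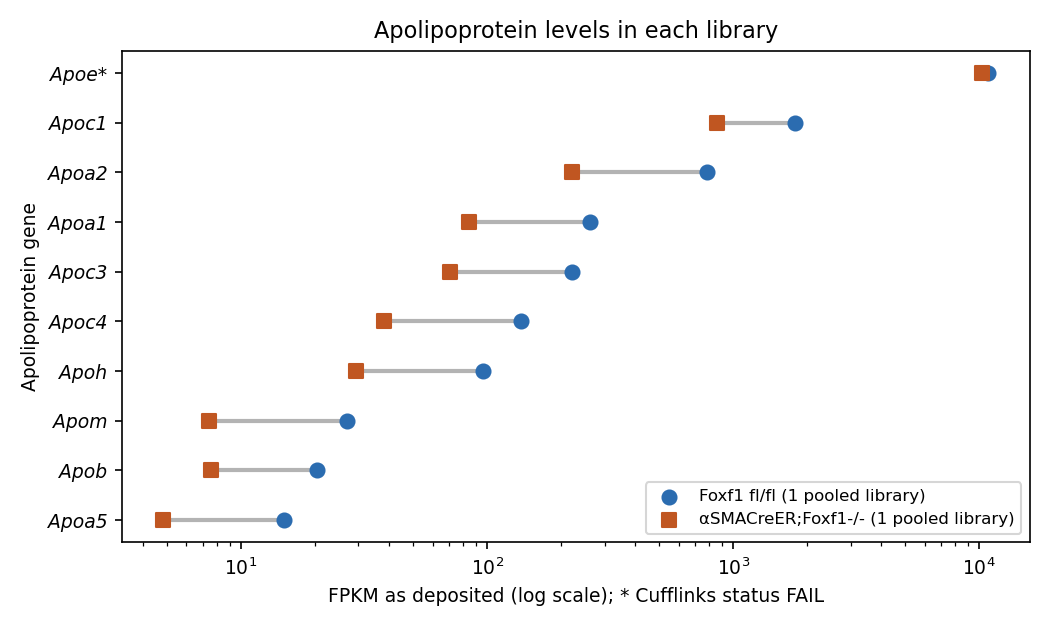
FPKM of the 10 apolipoprotein genes (log axis) in the Foxf1 fl/fl library (circles) and the αSMACreER;Foxf1-/- library (squares), with 1 pooled library per genotype and no error bars. Apoe, marked by an asterisk for its status, sits at 10903 and 10296 with its symbols touching, while each of the other 9 genes has its square well to the left of its circle.

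The order of levels was nearly the same in both libraries. Apoe was followed by Apoc1, Apoa2, Apoa1, Apoc3, Apoc4 and Apoh in each, and Apoa5 came last in each. Apom was above Apob in Foxf1 fl/fl cells (27.0 and 20.3) and slightly below it in αSMACreER;Foxf1-/- cells (7.39 and 7.56). Apoe held 76.5% of the summed FPKM of the 10 genes in Foxf1 fl/fl cells and 88.6% in αSMACreER;Foxf1-/- cells. Apoc1 held 12.5% and 7.41%, and Apoa2 held 5.49% and 1.90%. Without Apoe, the summed FPKM of the other 9 genes was 3344 and 1324, or 0.443% and 0.198% of the FPKM of all genes.

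Ratios between members within a library do not depend on the scaling between libraries. The Apoe level was 6.11 times that of Apoc1 in Foxf1 fl/fl cells and 11.95 times in αSMACreER;Foxf1-/- cells, and 41.8 and 122 times that of Apoa1. Apoc1 was 2.28 times Apoa2 in Foxf1 fl/fl cells and 3.91 times in αSMACreER;Foxf1-/- cells. The ratio of Apoa1 to Apoc3, which are adjacent genes, was 1.19 in both libraries. The order of the ratios thus placed Apoe, then Apoc1, then the remaining genes by how much of their control level was found in αSMACreER;Foxf1-/- cells.

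The log2 fold change of Apoe exceeded the median of the other 9 members by 1.56, and it exceeded that of Apoc1 by 0.97. Apoc1 in turn exceeded the median of the remaining 8 genes (−1.70) by 0.62. Among all genes at a mean FPKM of at least 1, 40.4% had a lower log2 fold change than Apoe and 5.61% a lower one than Apoc1. For the remaining 8 genes this share was between 1.83% (Apom) and 3.50% (Apob).

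**Figure D2:**
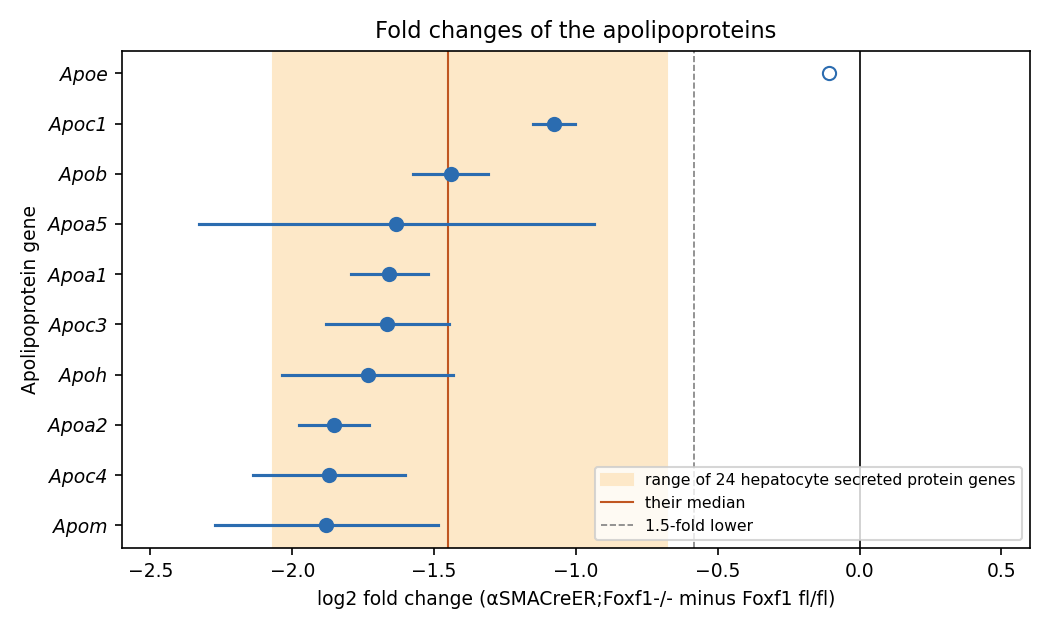
Log2 fold change of each apolipoprotein gene, with horizontal lines for the approximate 95% counting interval, the shaded range of 24 hepatocyte secreted protein genes, their median (solid line) and the 1.5-fold threshold (dashed line). The open symbol is Apoe, at −0.11 (0.083 with an equal FPKM sum, 0.19 with the length trend removed) and without an interval, which lies to the right of the threshold, and Apoc1 at −1.08 lies between it and the other 8 genes.

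The members were set beside 24 other genes for proteins that hepatocytes secrete, such as albumin, fibrinogen and transferrin. All 24 were at least 1.5-fold lower in αSMACreER;Foxf1-/- cells, against 13.2% of all genes, with a median log2 fold change of −1.45 and a range from −2.07 (Fetub) to −0.68 (Trf). Under an equal FPKM sum 22 were, against 8.9% of all genes, as Trf and Cp came within 1.5-fold. The 9 apolipoproteins other than Apoe all lay within this range, and 7 of them lay below its median. Alb, which encodes albumin, had an FPKM of 2292 in Foxf1 fl/fl cells and 912 in αSMACreER;Foxf1-/- cells (log2 −1.36, −1.38 to −1.33). Ttr had 322 and 86.8, Serpina1a had 44.3 and 16.1, and Hp had 524 and 210.1.
Relative to Alb in the same library, Apoa1 was at 11.4% in Foxf1 fl/fl cells and 9.23% in αSMACreER;Foxf1-/- cells, and Apoa2 was at 34.1% and 24.1%. Apob was at 0.887% and 0.828%. Apoc1 was at 77.9% and 94.4%. Apoe was at 476% and 1129%. With Alb as the reference, Apoc1 and Apoe were thus higher in αSMACreER;Foxf1-/- cells and the other 8 members lower, by 0.086 (Apob) to 0.52 (Apom) on the log2 scale. This order depends on length, since with the length trend removed Apob (−1.93) lay farthest below Alb (−1.14) and Apoc3 (−1.26) closest to it among these 8.

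Macrophage markers were read from the same libraries, because macrophages also express Apoe. Of 23 markers, 1 was at least 1.5-fold higher, 2 were at least 1.5-fold lower (12.8% and 13.2% of all genes) and 20 lay between, with a median log2 fold change of −0.14. With an equal FPKM sum 3 were higher (Ccr2, Gpnmb and Itgam) and 0 lower, against 21.2% and 8.9% of all genes, and the median was 0.048. With the length trend removed 0 were higher and 1 lower (Cd163), against 10.0% and 11.1% of all genes. Lyz2, the most abundant of them, had an FPKM of 3682 and 3395, and the cathepsin gene Ctss had 1771 and 1738. Adgre1, which encodes the F4/80 antigen, stood at 162 and 165, and Cd68 at 646 and 679. C1qb, a complement gene next in abundance to Ctss, had 1632 and 1307 (log2 −0.35, or 0.0019 with the length trend removed). The ratio of Apoe to Lyz2 was 2.96 in Foxf1 fl/fl cells and 3.03 in αSMACreER;Foxf1-/- cells. Ratios to some other markers would be less even, since the 23 log2 fold changes ranged from −0.76 (Cd163) to 0.66 (Itgam). The Kupffer cell receptor Clec4f was lower (1117 and 753, log2 −0.60), as was the haemoglobin scavenger receptor Cd163 (30.0 and 18.1, log2 −0.76), whereas the integrin Itgam was higher (46.9 and 75.6, log2 0.66). The summed FPKM of the 23 markers was 2.14% of the FPKM of all genes in Foxf1 fl/fl cells and 2.09% in αSMACreER;Foxf1-/- cells. The 24 hepatocyte genes made up 0.862% and 0.396%. How much of the Apoe signal came from either cell type was not tested.

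The cells are labelled stromal. Of 20 stellate cell and myofibroblast markers 15 passed the filter on low values, with a median log2 fold change of 0.42, or 0.19 with the length trend removed or without the filter. Of these, 2 were at least 1.5-fold higher (Des and Pdgfra) and 1 was lower (Tpm2), against 12.8% and 13.2% of all genes. With an equal FPKM sum 8 were higher (also Pdgfrb, Dcn, Lum, Col1a1, Col1a2 and Col3a1), against 21.2% of all genes, and Tpm2 had no call. With the length trend removed 2 were higher (Des and Lum) and 0 lower, against 10.0% and 11.1% of all genes. Their summed FPKM was 0.0641% of all FPKM in Foxf1 fl/fl cells and 0.101% in αSMACreER;Foxf1-/- cells, and the most abundant was Dcn (127 and 186). Desmin (Des) had 1.70 and 3.29, Acta2 had 7.77 and 5.65, and Lrat, the enzyme that stores vitamin A in quiescent stellate cells, had only 0.0778 and 0.111. The collagen genes Col1a1 (70.2 and 103), Col1a2 (102 and 151) and Col3a1 (115 and 164) stood far above Des. In αSMACreER;Foxf1-/- cells each exceeded all of the 9 lower apolipoproteins except Apoc1 and Apoa2. In Foxf1 fl/fl cells each was also below Apoa1 (261), Apoc3 (220.3) and Apoc4 (138), and Col1a1 was below Apoh (96.2).
Neutrophil markers were lower together with the 9 apolipoproteins. All 6 were at least 1.5-fold lower (13.2% of all genes), or 5 with the length trend removed (without Retnlg, 11.1% of all genes), their summed FPKM went from 0.289% to 0.132% of the total, and the most abundant, S100a9, had an FPKM of 1258 and 504. S100a8 had 625 and 256, and Ly6g had 9.82 and was listed at 0 in αSMACreER;Foxf1-/- cells. Of 10 endothelial markers 0 passed 1.5-fold in either direction, or 2 higher (Stab2 and Tek) with an equal FPKM sum, against 21.2% of all genes. The most abundant, Clec4g (254 and 187, log2 −0.47) and Egfl7 (229 and 169.6, log2 −0.46), had smaller values in αSMACreER;Foxf1-/- cells. Pecam1 had 93.3 and 96.6, and Stab2 had 64.0 and 85.9. Of the 4 cholangiocyte markers that passed the filter, 1 was lower (Epcam, 8.38 and 5.65), and of 7 lymphocyte markers 1 was higher (Cd4, 6.34 and 14.1), against 13.2% of all genes lower and 12.8% higher. Scaled to an equal FPKM sum, Epcam lost its call, 2 cholangiocyte markers were higher (Krt7 and Sox9) and 3 lymphocyte markers were higher (21.2% of all genes). With the length trend removed Epcam lost its call and 2 lymphocyte markers were higher (10.0% of all genes). The part of these cells in the apolipoprotein differences was not tested.

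**Figure D3:**
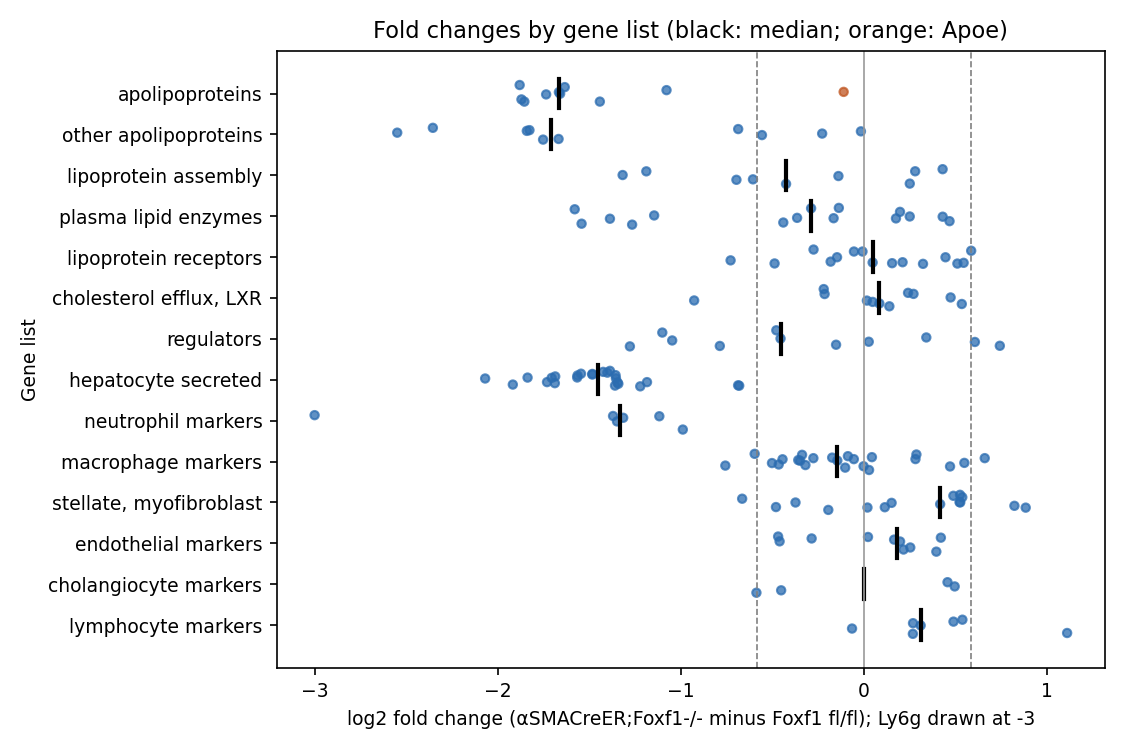
Log2 fold change of the genes of each list at a mean FPKM of at least 1, with 1 point per gene, a black bar for the list median (without Apoe for the apolipoproteins) and dashed lines at 1.5-fold (Ly6g, listed at 0 in 1 library, is drawn at the left edge). The apolipoproteins other than Apoe (orange point at −0.11, or 0.083 with an equal FPKM sum) have a median of −1.66, near those of the other apolipoproteins (−1.71), hepatocyte secreted proteins (−1.45) and neutrophil markers (−1.33), while the macrophage markers are centred at −0.14.

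A further 10 genes for apolipoproteins or apolipoprotein-like plasma proteins were read in the same way. Of these, 7 were at least 1.5-fold lower, against 13.2% of all genes, and 3 were not (Apoc2, Apod and Clu), with a median log2 fold change of −1.71. The acute-phase proteins of high density lipoproteins Saa1 (166 and 33.1, log2 −2.35, −2.61 to −2.10) and Saa2 (115 and 19.99, log2 −2.55, −2.87 to −2.23) were lower by more than any of the 10 members. They are near-identical copies, and the division of reads between them is uncertain. Saa3, which macrophages and stromal cells make, had a much higher level and a smaller difference (2052 and 1299, log2 −0.69), which came within 1.5-fold once the length trend was taken out and also with an equal FPKM sum, leaving 6 lower genes (11.1% and 8.9% of all genes). The hepatocyte genes Apof (19.3 and 5.78, log2 −1.75), Apon (14.6 and 4.07, log2 −1.84) and Saa4 (7.20 and 1.99, log2 −1.83) had fold changes inside the range of the 8 members other than Apoe and Apoc1. Apod, which many cell types express, had 2.49 and 2.51, and Clu, which encodes the widely expressed apolipoprotein J, had 290.2 and 253 (log2 −0.23).

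The clusters in which these genes lie differed in how uniform they were. In the cluster on chromosome 9, which spans 43.3 kb, Apoa1, Apoc3, Apoa4 and Apoa5 had log2 fold changes of −1.66, −1.66, −1.67 and −1.63, although their levels in Foxf1 fl/fl cells ranged from 5.64 (Apoa4) to 261 (Apoa1). With the length trend removed they were less alike, at −1.31, −1.26, −1.42 and −1.54. In the cluster on chromosome 7, which spans 27.6 kb, Apoe, Apoc1, Apoc4 and Apoc2 had −0.11 (0.083 with an equal FPKM sum), −1.08, −1.87 and −0.56. Apoc2, the cofactor of lipoprotein lipase, had an FPKM of 111 and 76.7 and did not pass 1.5-fold. The fold changes of Apoe, Apoc1 and Apoc4 thus lay farther apart than those of the 4 genes on chromosome 9, also with the length trend removed (0.19, −0.71 and −1.73).
Protein-coding genes on either side were read for comparison. For each of 6 loci the 2 nearest that did not overlap it were taken on each side, 24 in all, of which 19 passed the filter. Prkca, which overlaps the Apoh entry (3.49 and 4.73, log2 0.40), was left out by this rule, and some of the genes lie far off (Atad2b and Klhl29 start at −3060.3 and −2602 kb from the Apob start). The median log2 fold change of the 19 was −0.24. At least 1.5-fold lower was 1 and at least 1.5-fold higher were 2, against 13.2% and 12.8% of all genes. The lower gene was Nr1i3, the nuclear receptor CAR (1.64 and 0.996), which starts at −11.1 kb from the Apoa2 start. The higher genes were Sik3 next to Apoa1 (23.0 and 37.5) and Atad2b on the side of Apob (1.37 and 2.35). Beside Apoe, Tomm40 had 23.5 and 18.1 (log2 −0.40) and Clptm1, beyond Apoc2, had 30.2 and 31.7 (log2 0.047). Beside Apom, Bag6 had 122 and 112. Fcer1g, an Fc receptor subunit of myeloid cells next to Apoa2, had 879 and 661 (log2 −0.44).

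**Figure D4:**
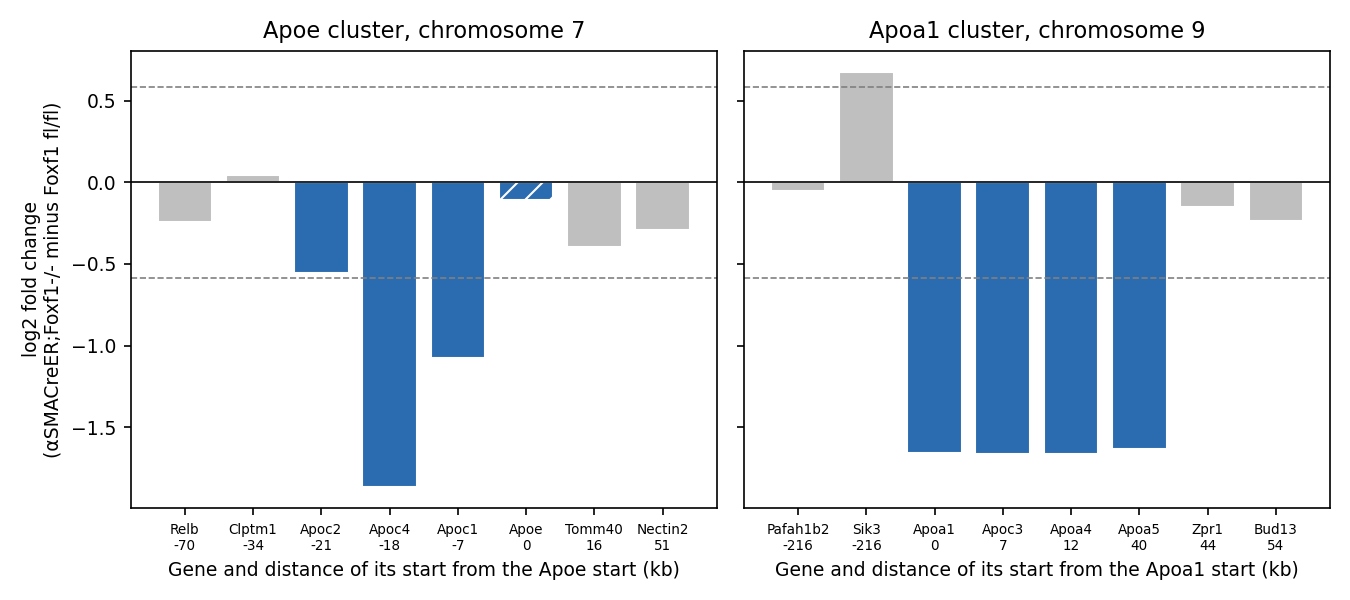
Log2 fold change of the genes of both apolipoprotein clusters (blue) and of the 2 nearest protein-coding genes on each side (grey), in genomic order, with the distance of each start from that of Apoe or Apoa1 in kb and dashed lines at 1.5-fold. The 4 blue bars on the right lie between −1.63 and −1.67, those on the left between −0.11 (Apoe, hatched for its status, 0.083 with an equal FPKM sum) and −1.87 (Apoc4).

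Genes of lipoprotein metabolism outside the family were divided by function. Lipoprotein assembly and secretion was represented by 9 genes above the filter. At least 1.5-fold lower were 4 of them and 0 were higher, against 13.2% and 12.8% of all genes, and the median log2 fold change was −0.42. The lower genes were Mttp (3.63 and 2.25), which loads lipid onto Apob, Tm6sf2 (2.22 and 0.938), Cideb (14.3 and 5.80, log2 −1.32) and P4hb (692 and 463, log2 −0.60), the broadly expressed protein disulfide isomerase that forms the small subunit of the transfer complex. P4hb lost its call with the length trend removed, and with an equal FPKM sum Mttp and P4hb lost theirs and Apobec1 was higher, which left 2 lower and 1 higher (8.9% and 21.2% of all genes). Surf4, a cargo receptor of the secretory pathway, had 104 and 126 (log2 0.25), and the Apob mRNA-editing enzyme Apobec1 had 76.0 and 104 (log2 0.43).

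Of 15 enzymes and cofactors that act on plasma lipids, 5 were at least 1.5-fold lower and 0 higher, against 13.2% and 12.8% of all genes, with a median of −0.29. Higher calls were 2 with an equal FPKM sum (Lpl and Pon3, against 21.2% of all genes) and 1 with the length trend removed (Pon3, against 10.0%). Among the lower genes were Lcat (15.5 and 6.51), which esterifies cholesterol with Apoa1 as cofactor, hepatic lipase Lipc (3.06 and 0.976, log2 −1.58), the paraoxonase Pon1 (21.6 and 7.496), and Angptl8 (2.74 and 1.005), which takes part in the inhibition of Lpl. Each of these is made mainly by hepatocytes or, for Angptl8, by hepatocytes and fat. Angptl8 rests on about 18 and 8 reads (log2 −1.39, −2.61 to −0.16). Another paraoxonase, Pon3, lay within 1.5-fold, with the larger value in αSMACreER;Foxf1-/- cells (13.3 and 18.3, log2 0.43). The 3 most abundant genes of the list also lay within 1.5-fold. Pltp, the phospholipid transfer protein, had 277 and 336 (log2 0.25), Lpl had 149 and 209.8 (log2 0.47), and Gpihbp1, which anchors Lpl to capillaries, had 281 and 211 (log2 −0.44).

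Receptors for apolipoproteins were read next. Of 15 that passed the filter 1 was at least 1.5-fold higher (Sort1, a sorting receptor, 5.33 and 8.21, log2 0.59) and 1 lower (Lsr, the lipolysis-stimulated receptor, 20.2 and 12.4, log2 −0.73), against 12.8% and 13.2% of all genes, and the median was 0.049. With an equal FPKM sum, 4 were higher (Sort1, Sorl1, Lrp8 and Cd36) and 0 lower, against 21.2% and 8.9% of all genes. With the length trend removed 0 were higher and 3 lower (Lsr, Lrp1 and Stab1), against 10.0% and 11.1% of all genes. Lrp1, a remnant receptor that binds Apoe, had 155 and 143, and the scavenger receptors Stab1 and Cd36 had 417 and 303 (log2 −0.49) and 128 and 185 (log2 0.51). Genes of cholesterol efflux and of the oxysterol-sensing receptors LXR, which control Apoe in macrophages, had a median of 0.086. Of these 11 genes 0 were higher and 1 was lower (Cyp27a1, 25.8 and 13.8, log2 −0.93), against 12.8% and 13.2% of all genes. With an equal FPKM sum 2 were higher (Npc1 and Abca1), against 21.2% of all genes. Npc1, which exports cholesterol from lysosomes, had 27.4 and 40.5 (log2 0.54), Npc2 had 344 and 302, and the lipid droplet protein Plin2 had 765 and 859.

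Of 17 transcriptional regulators of apolipoprotein genes 11 passed the filter, of which 4 were at least 1.5-fold lower and 2 higher, against 13.2% and 12.8% of all genes, with a median of −0.45. The lower ones were Hnf4a, a master regulator of hepatocyte genes (5.99 and 2.79, log2 −1.10), the bile acid receptor Nr1h4 (3.67 and 1.76), Creb3l3, which drives Apoa4 and Apoc2 in fasting (5.09 and 2.08, log2 −1.28), and Cebpb, which myeloid cells also express (678 and 401, log2 −0.79). The higher ones were Ppara (1.84 and 2.90) and Srebf1 (24.6 and 42.1, log2 0.74). With the length trend removed neither was 1.5-fold higher, nor was Cebpb 1.5-fold lower. Nr1h2, 1 of the LXR genes, had 86.2 and 88.9, and Cebpa had 35.8 and 26.6 (log2 −0.45).

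Fold changes followed transcript length across all genes, and most apolipoprotein transcripts are short. Among the 1271 genes with transcripts of 73 to 983 bases, the shortest of 10 groups of about equal size, 38.4% were at least 1.5-fold lower and the median was −0.40. Among the 1270 with 6388 bases or more, 3.23% were lower and the median was 0.42. Apoa2, Apoc1 and Apoc3, with longest transcripts of 518, 532 and 709 bases, belonged to the first group and Apob to the second. With the median of each of 20 length groups subtracted, Apob was the lowest of the 10 genes, at −1.93, Apoc1 was at −0.71, and the other 7 lay between −1.73 (Apoc4) and −1.26 (Apoc3). All 9 thus remained at least 1.5-fold lower.

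**Figure D5:**
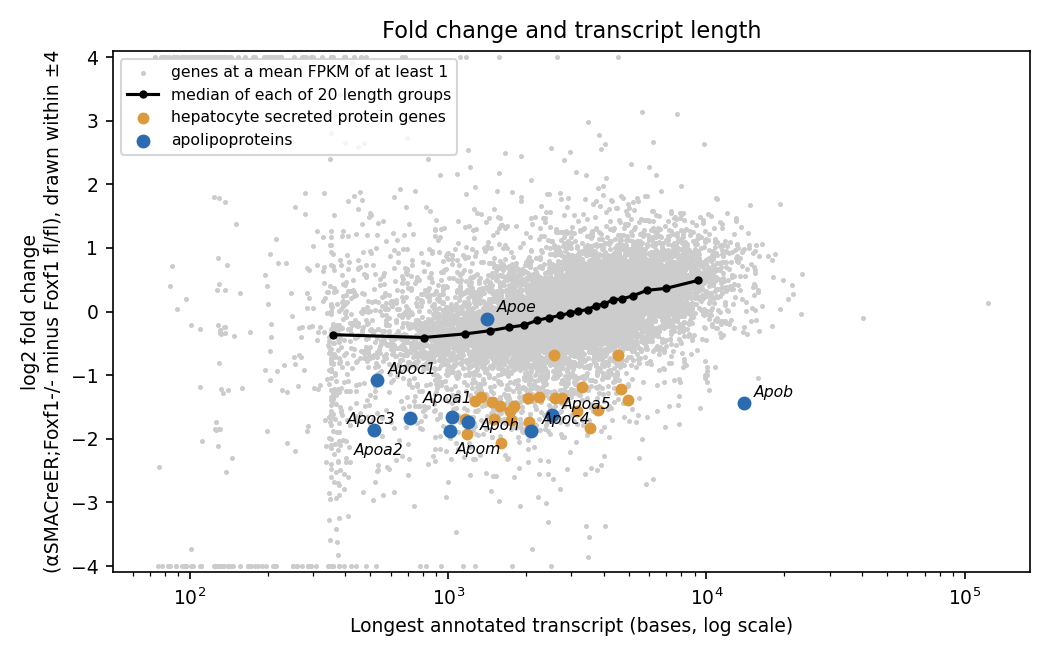
Log2 fold change against the longest annotated transcript (log axis) for genes at a mean FPKM of at least 1 (grey), with the median of each of 20 length groups (black line), the hepatocyte secreted protein genes (orange) and the apolipoproteins (blue, named). Apob lies far below the line at its length, Apoc1 and Apoa2 are among short transcripts whose median is below 0, and Apoe lies above the line.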

How the data were processed

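RNA-seq was performed by the authors on adherent hepatic stromal cells, with samples of each genotype pooled into 1 TruSeq library and sequenced as single-end 75-base reads. Per the labels, TopHat and the mm10 build were used, without versions, and DESeq for the authors' own comparison, which was not repeated. The authors deposited Cufflinks FPKM values per Ensembl gene with a status. Symbols from GENCODE M21 matched 36490 of 38320 entries, and a symbol held by several entries was read from the most highly expressed of them.

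The scaling used 11871 genes with 1 FPKM or more in each library, and the study's 1.5-fold threshold was applied without a test. Depth was estimated from the spacing of low values, with fragments of 200 bases, at about 9985000 and 11330000 reads (49.3% and 51.2% of low values within 0.1 of a whole read). The 95% counting intervals built on it use the median coding transcript, are rough, and cover counting error only, not spread between animals. Members and gene lists were chosen with earlier results of these data known. Named genes were the members, the 3 most abundant and the 2 extreme genes of each list, the first 3 of each marker list and flanking genes. Others were named after their values were seen, and 1 gene of the plasma lipid list is not reported here. The steps were tested on simulated data. Python 3.11.15, numpy 2.4.6, pandas 2.3.3 and matplotlib 3.10.9 were used.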

Additional observations from a re-analysis of the deposited data

How the results depend on the processing

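No paired analysis was possible because a single pooled library stood for each genotype, and no replicate could be left out. The number of members at least 1.5-fold lower (9), the median of the 9 members other than Apoe and the gap between Apoe and that median (1.54 to 1.68) kept their direction under every alternative run, and each of the 9 genes stayed at least 1.5-fold lower (−1.93 to −0.71). An equal FPKM sum moved the median of all genes to 0.19. Apoe, at −0.11, turned to 0.083 with that scaling, and to 0.19 once the trend with length was taken out; the cause was not tested. Among genes of the 6 pathway lists, 22 were lower and 3 higher, against 13.2% and 12.8% of all genes. The lists (other apolipoproteins, assembly, receptors, plasma lipid enzymes, efflux and regulators) held 10, 9, 15, 15, 11 and 11 genes above the filter. With a mean FPKM of at least 5 the lower were 13 (11.1% of all such genes). The higher were 1 with the length trend removed (10.0% of all genes) or a pseudocount of 1 (1083 of 12692 genes). They were 11 with an equal FPKM sum (21.2%) and 0 at 2-fold (4.35%). Of 104 list medians 8 moved by more than 0.22 and 0 of those past 1.5-fold changed sign. The stellate median (0.42) was 0.19 with the length trend removed or no filter, and at a mean FPKM of 5 or more assembly (−0.42) was at −0.14 and regulators (−0.45) at −0.15. With the length trend removed, endothelial markers (0.18) were at −0.051, neutrophil markers (−1.33) at −1.002 and other apolipoproteins (−1.71) at −1.41, with −1.38 at a pseudocount of 1. Of all genes, 1678 were lower and 1624 higher, against 3225 and 3832 without a filter, 943 and 685 for means of 5 FPKM or more, 788 and 552 at 2-fold, and 1130 and 2685 with an equal FPKM sum. With reads estimated from the median coding transcript, the depth limits Apoa5 most among the members, at about 23 reads in αSMACreER;Foxf1-/- cells. This order depends on the transcript length taken.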

Other observations

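The Apol genes share only part of their name with the plasma apolipoproteins and encode mainly intracellular proteins. They were looked at after the values were seen. Of 13 such genes 12 lie on chromosome 15, and 5 of the 13 passed the filter. Apol9a (3.29 and 1.73), Apol9b (3.93 and 1.78) and Apol7a (1.32 and 0.779) were at least 1.5-fold lower in αSMACreER;Foxf1-/- cells, against 13.2% of all genes, and Apol7c (1.40 and 1.46) was not. Apol7a came within 1.5-fold with an equal FPKM sum (log2 −0.54) or a pseudocount of 1 (−0.39). Apol9a and Apol9b are near-identical copies, so the division of reads between them is uncertain. The entry named Apol7d had the largest difference, from an FPKM of 20.8 to 124, 5.85-fold higher (log2 2.54, and 2.49 to 2.89 under a pseudocount of 1, an equal FPKM sum or removal of the length trend), against 12.8% of all genes at least 1.5-fold higher. It is annotated as an antisense RNA on chromosome 1 (chr1:71652837-71662843 of mm10, plus strand) and overlaps Fn1, the fibronectin gene on the minus strand, by 364 bases. Fn1 was 2.46-fold higher (127 and 319). The strand setting of the counting is not given in the sources used here, so reads inside the overlap cannot be assigned to Apol7d or Fn1.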
